A study of Mus musculus with 32 samples.

Results

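The RNA of germ cells from 5 mice at 18 days post-partum (dpp) was compared with that of 5 mice at 16 dpp, 10 of the 32 samples of the series, and every gene of the deposited gene table was used. All 10 were untreated C57BL/6J males, and each sample came from both testes of a single mouse, digested with Liberase and DNase and washed to deplete interstitial cells, so that no germ cell type was sorted. The other samples used for reference were the younger mice, at 8, 10, 12 and 14 dpp, and 4 samples of adult pachytene spermatocytes, pooled over mice aged 9 weeks and enriched by sedimentation (STA-PUT). Poly-A RNA was sequenced, and levels are given as TPM, transcripts counted relative to a fixed library total, a unit scaled for gene length that keeps no reads, so that neither the depth of a library nor its counting error is known. The table held 20368 genes, of which 15025 were Ensembl genes, 76 were piRNA precursors and the rest were NONCODE non-coding genes.

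In the first wave of spermatogenesis the most advanced germ cells of a juvenile testis go through meiosis roughly in step while later waves start behind them, so that spermatogonia remain at every age, and pachytene spermatocytes, in which homologous chromosomes are fully synapsed, gather in the tubules as the mouse ages. Late pachytene cells are known to transcribe many genes whose proteins act only later, in the acrosome and tail of the sperm, and to silence the X and Y chromosomes in the sex body. Microscopy of nuclei from the same mice had placed fewer late pachytene cells in mice 4 and 5 at 18 dpp than in mice 1 to 3, so values are given mouse by mouse, in the order of mice 1 to 5. In bulk RNA of this kind, more cells of a type and more RNA per cell cannot be told apart.

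Between 16 and 18 dpp, 4188 genes rose and 4783 fell (limma on log2(TPM + 1), Benjamini-Hochberg adjusted p-value under 0.05), which is 20.6% and 23.5% of the genes tested. The rises were larger than the falls. The median log2 difference of the genes that rose was 0.85 and of those that fell -0.47. A difference of at least 1 on the log2 scale was reached by 1720 of the rising genes (8.44% of the genes tested) and by 58 of the falling genes (0.285%). All 5 mice at 18 dpp lay above all 5 mice at 16 dpp in 13.2% of the genes tested and below them in 12.4%. The TPM of a sample have a fixed total. The median log2 difference over all genes was -0.11, and it was -0.03 after scaling by median-of-ratios factors. With those factors 4794 genes rose and 3376 fell, so that rises made up 58.7% of the calls in place of 46.7%, and 4182 rises and 3376 falls were shared with the first count. The calls of small falls changed with the scaling, and the values below are to be read against the median of -0.11. The count of falls also moved with single mice, to 3141 without mouse 3 at 18 dpp. Set against all 5 mice of 16 dpp, a comparison added after the data were seen, mice 1 to 3 of 18 dpp gave 5003 rises and 6777 falls by limma, whereas mice 4 and 5 alone gave 2 rises (the NONCODE genes NONMMUG033062 and NONMMUG008146) and 1 fall (NONMMUG037669), with 4976 genes at an unadjusted p under 0.05.

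Of the 154 called genes named below, 127 kept their call whichever mouse was left out, among them 79 of the 84 with a log2 difference of at least 1 in either direction. The other 27 lost it in at least 1 case, with limma adjusted p-values of up to 0.109, and their calls are the least firm. They were the falls of Atm, Brca1, Cdh5, Cpeb1, Fkbp6, Fthl17d, Gpc3, H2afv, H2afy2, Mei1, Piwil4, Rec114, Rec8, Rpl36a, Scml2, Sox3, Taf4b, Taf7l, Tex11, Tyms and Zcwpw1 and the rises of 1700001F09Rik, Gm10058, H2afz, Tssk1, Utp14b and the piRNA precursor pi-10-qA3-143.

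**Figure D1:**
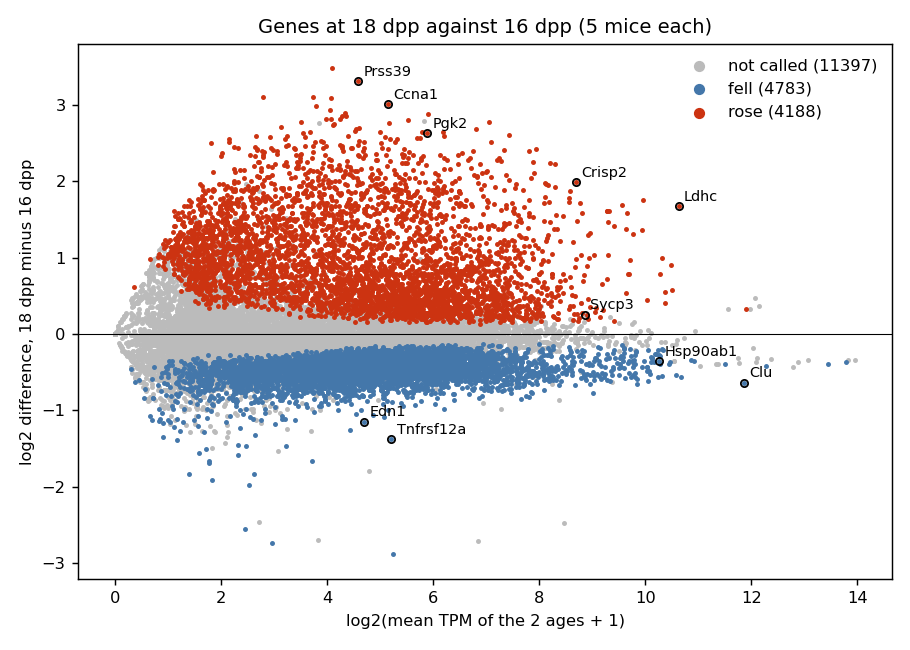
Log2 difference in log2(TPM + 1) between 18 and 16 dpp (vertical axis) against the log2 of the mean TPM of the 2 ages plus 1 (horizontal axis) for the 20368 genes, in red where the gene rose, blue where it fell and grey where it was not called. The red points reach above 3 on the log2 scale, whereas few blue points lie below -1, and Sycp3 lies close to 0.

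The labelled cell population was checked against its markers first. Of the genes of pachytene spermatocytes, Ldhc and Piwil1 were abundant in all 10 mice. Others, such as Pgk2 (mean of 14.3 TPM) and Ccna1, were far lower at 16 dpp, with values by mouse given below. Ldhc, which encodes the lactate dehydrogenase of germ cells (chromosome 7, 46861203 to 46878142, in the GENCODE annotation of GRCm38, the build also called mm10), had 1190, 617, 523, 531 and 936 TPM at 16 dpp and 2920, 3040, 2890, 1590 and 1540 TPM at 18 dpp. The ages did not overlap, and the log2 difference was 1.67 (SE 0.29, limma adjusted p = 0.00477). Piwil1, the PIWI protein that binds pachytene piRNAs (chromosome 5, 128702524 to 128755474), had 267, 152, 128, 124 and 185 TPM at 16 dpp and 401, 375, 397, 314 and 281 TPM at 18 dpp, again without overlap. Its log2 difference was 1.09 (SE 0.202, limma adjusted p = 0.00477). The 10 genes listed for late spermatids were absent from the gene table, which holds genes of at least 3 TPM in some juvenile mouse. From the summed transcripts, Prm1 and Prm2, the protamines of condensed sperm chromatin, were listed at 0 in every mouse at 16 dpp and reached at most 0.77 and 0.57 TPM at 18 dpp. The adult cells held 209 TPM of Prm1 and 270 TPM of Prm2 on average, so that their reference values include RNA of spermatid genes.

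Of the proteins that the study stained to stage the nuclei, Stra8, needed for entry into meiosis (chromosome 6, 34920163 to 34939344), fell. It had 136, 150, 148, 122 and 110 TPM at 16 dpp and 76.0, 74.2, 79.7, 99.5 and 104 TPM at 18 dpp, so that the ages did not overlap, with a log2 difference of -0.62 (SE 0.122, limma adjusted p = 0.00498). Sycp3, a protein of the synaptonemal complex axis, averaged 424 ± 68.3 TPM over the 5 mice at 16 dpp and 502 ± 42.7 TPM over the 5 at 18 dpp (± SD) and was not called (limma adjusted p = 0.0755), although it was called with median-of-ratios factors (limma adjusted p = 0.024). H2afx, the histone variant phosphorylated over the sex body, averaged 114 ± 12.0 and 126 ± 20.4 TPM (± SD, 5 mice per age) and was not called (limma adjusted p = 0.386). Hist1h1t, the testis linker histone of mid pachytene and later cells, lay between 0.26 and 0.66 TPM at 16 dpp and between 0 and 0.91 TPM at 18 dpp, too low in poly-A RNA to be compared.

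The 12 largest rises among annotated genes took genes from at most 23.9 TPM in any mouse at 16 dpp to at least 30.7 TPM in mice 1 to 3 at 18 dpp. Among those that reached adjusted significance without overlap of the ages, Prss39, a testis serine protease (chromosome 1, 34498410 to 34503063), had 2.42, 0.93, 1.19, 2.82 and 4.50 TPM at 16 dpp and 72.5, 70.8, 55.9, 10.0 and 7.95 TPM at 18 dpp. Its log2 difference was 3.31 (SE 0.647, limma adjusted p = 0.00492). Mice 1 to 3 at 18 dpp stood far above mice 4 and 5, which in turn stood above every mouse at 16 dpp. The same order held for Ccna1, the germ cell cyclin A needed for the meiotic division of spermatocytes (chromosome 3, 55045469 to 55055501). It had 9.18, 2.39, 4.22, 2.96 and 8.87 TPM at 16 dpp and 106, 90.6, 87.1, 17.5 and 14.0 TPM at 18 dpp, with a log2 difference of 3.01 (SE 0.618, limma adjusted p = 0.00545). Prss21, a serine protease of germ cells also known as testisin, had 4.53, 0.54, 0.68, 1.08 and 4.73 TPM at 16 dpp and 51.3, 33.7, 44.3, 10.1 and 7.30 TPM at 18 dpp. Ggn, the germ cell protein gametogenetin, was the most abundant of the 12 largest rises, with 17.1, 5.47, 7.21, 9.50 and 23.9 TPM at 16 dpp and 167, 128, 142, 42.5 and 39.6 TPM at 18 dpp. The others were Nme8, a thioredoxin-domain protein of the sperm tail, Ccdc178, Toporsl, Efcab8 and the Riken genes 4932702P03Rik, 4930589P08Rik, 1700019G24Rik and 1700025F22Rik, with log2 differences between 2.82 and 3.48. Of these, 4932702P03Rik, 4930589P08Rik and 1700019G24Rik are antisense RNAs that overlap Aldh5a1, Camta1 and Dync1i1, and the strandedness of the libraries was not stated, so their reads cannot be told apart from those of the overlapping genes. Ccna1 and Ggn also overlap genes of the opposite strand, 4931419H13Rik and Spred3. All 12 were higher still in adult pachytene cells, between 116 and 357 TPM, in a table normalized on its own.

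**Figure D2:**
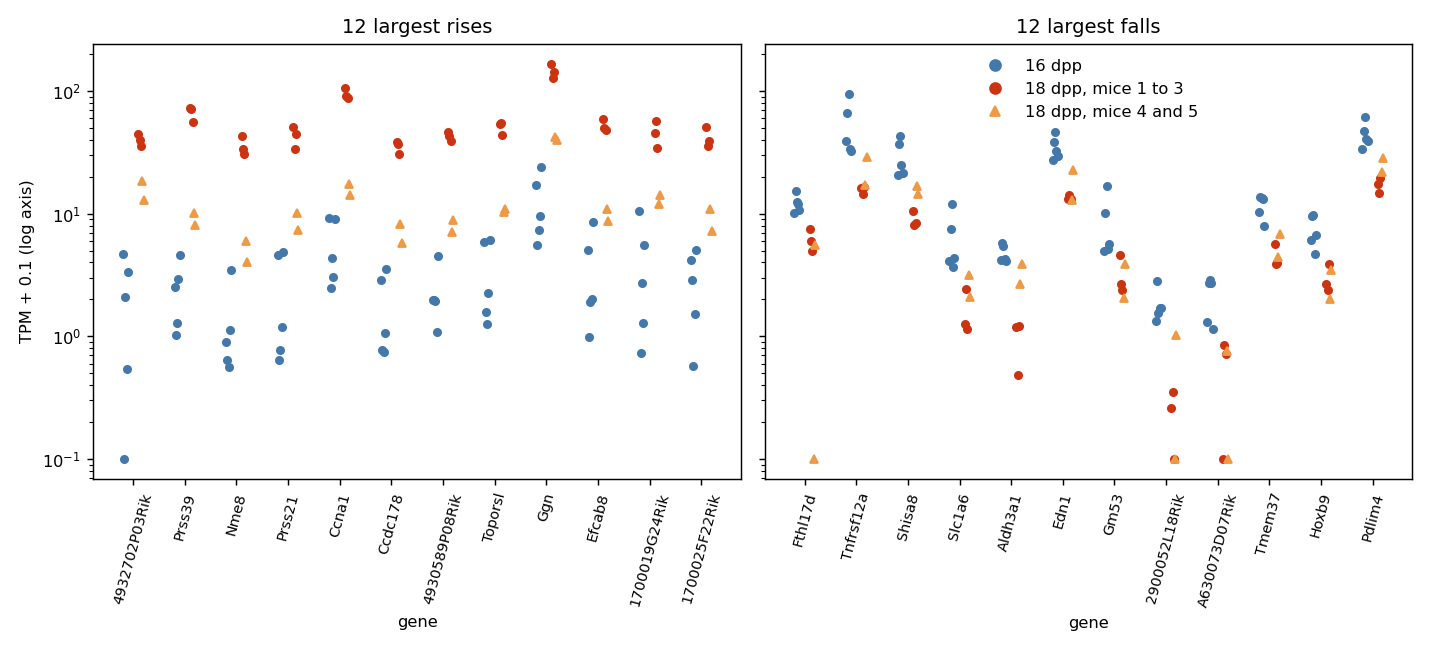
TPM plus 0.1 on a log axis in each of the 10 mice for the 12 genes of largest rise (left) and the 12 of largest fall (right) whose ages did not overlap. In the rises the circles of mice 1 to 3 at 18 dpp lie above the triangles of mice 4 and 5, which lie above the mice at 16 dpp, and in the falls the 2 ages lie closer together.

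Genes that were below 3 TPM in every mouse up to 16 dpp and at least 3 TPM in every mouse at 18 dpp numbered 82, of which 49 were Ensembl genes, 26 NONCODE genes and 7 piRNA precursors. Of these, 80 had at least 3 TPM in all 4 adult samples. No gene went from under 1 TPM in every mouse at 16 dpp to at least 3 TPM in every mouse at 18 dpp. In the opposite direction, 21 genes went from at least 3 TPM in every mouse at 16 dpp to less than 3 TPM in every mouse at 18 dpp. Of all rising genes, 97.5% had at least 3 TPM in all 4 adult samples, against 55.7% of the genes tested and 43.0% of the falling genes. Of the 58 genes that fell by at least 1 on the log2 scale, 0 did.

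Genes of the sperm head and tail that reached 3 TPM rose as groups. In each list described here, the count is to be read against the 20.6% of all genes that rose and the 23.5% that fell, and its median against the -0.11 of all genes. A gene that stayed below 3 TPM in every juvenile mouse is not in the table, and a low gene could enter it through a mouse at 18 dpp, so the counts cover the measured members and not whole lists. Measured were 39 of the 44 listed genes of the axoneme and flagellum, 12 of the 23 of the acrosome, 8 of the 17 ADAM genes, 5 of the 10 kinases, 11 of the 14 isozymes and 16 of the 18 chaperones. From summed transcripts, the unmeasured ones had at most 2.73 TPM at 18 dpp, and several did not rise, such as Izumo1, the sperm protein of egg fusion, with 0.58 to 1.49 TPM at 16 dpp and 0.59 to 1.10 TPM at 18 dpp, and the kinase Tssk6, with 0.87 to 2.63 and 0.99 to 2.45 TPM. Of 39 measured genes of the axoneme and sperm flagellum, 38 rose and 0 fell, with a median log2 difference of 1.65. Tekt3, a tektin of the sperm tail (chromosome 11, 63061654 to 63094964), had 16.7, 5.74, 7.67, 6.60 and 13.2 TPM at 16 dpp and 99.7, 89.5, 89.4, 30.1 and 28.7 TPM at 18 dpp. Tekt4, Tcte1 and Dnaic2, a further tektin, a regulatory protein and an intermediate chain of the dynein machinery, rose by 2.75, 2.58 and 2.51 on the log2 scale. Of 12 measured genes of the acrosome and of sperm-egg binding, 11 rose and 0 fell, with a median of 1.77. Crisp2, a cysteine-rich protein of the acrosome (chromosome 17, 40764020 to 40807003), had 274, 118, 94.2, 123 and 210 TPM at 16 dpp and 919, 828, 819, 382 and 339 TPM at 18 dpp, so that no mouse at 16 dpp reached the lowest at 18 dpp. Zpbp2, which binds the zona pellucida, Spata16, needed for acrosome formation, and Acrbp, which binds proacrosin, rose by 2.30, 2.22 and 1.98 on the log2 scale. Of 8 measured fertility ADAM proteases, 7 rose and 0 fell, with a median of 2.19. Adam3, a surface protein that sperm need to bind the zona (chromosome 8, 24677225 to 24725852), had 48.6, 19.8, 14.1, 20.3 and 54.3 TPM at 16 dpp and 367, 314, 290, 92.0 and 88.4 TPM at 18 dpp, with a log2 difference of 2.78 (SE 0.515, limma adjusted p = 0.00477). Adam18, Adam1b and Adam32 rose by 2.36, 2.28 and 2.26. Of 5 measured testis kinases, 4 rose, led by Stk33 (1.57) and Tssk1 (1.28, with overlapping ages).

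The enzymes and chaperones that spermatocytes use in place of somatic forms rose too. Of 11 measured testis isozymes of energy metabolism, 10 rose and 0 fell, with a median of 1.32. Pgk2, the phosphoglycerate kinase of germ cells (chromosome 17, 40207015 to 40208640), had 23.3, 8.32, 6.91, 11.6 and 21.2 TPM at 16 dpp and 151, 154, 129, 41.3 and 33.6 TPM at 18 dpp, without overlap. The glycerol kinases Gk2 and Gykl1 each rose by 2.11 on the log2 scale. Of 16 measured spermatocyte chaperones, 9 rose and 1 fell, with a median of 0.68. Hspb9, a small heat shock protein of the testis, had 98.7, 34.2, 50.3, 44.6 and 99.2 TPM at 16 dpp and 544, 548, 488, 169 and 136 TPM at 18 dpp. Cct6b, a testis subunit of the chaperonin, and the DnaJ proteins Dnajb3 and Dnajb13 rose by 1.91, 1.81 and 1.67. Hsp90ab1, the HSP90 of most cells, fell, from 1290, 1360, 1480, 1400 and 1330 TPM to 952, 1020, 969, 1180 and 1220 TPM, with a log2 difference of -0.36 (SE 0.0845, limma adjusted p = 0.00813).

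Regulators of RNA rose in 3 lists. Of 24 germ cell RNA regulators, 17 rose and 2 fell, with a median of 0.64. Ybx2, the Y-box protein MSY2 that packages stored messages of germ cells (chromosome 11, 69935796 to 69941605), had 713, 475, 379, 371 and 581 TPM at 16 dpp and 1480, 1410, 1480, 972 and 874 TPM at 18 dpp, without overlap. Pabpc2, a testis poly-A binding protein, Papolb, the testis poly-A polymerase, and Ybx3 rose by 2.51, 2.24 and 1.46, while Cpeb1, a regulator of cytoplasmic polyadenylation, fell by 0.28 on the log2 scale. With median-of-ratios factors 0 genes of the list fell. Of 22 piRNA biogenesis factors, 12 rose and 2 fell, with a median of 0.47. Tdrd6, a Tudor protein of the chromatoid body (chromosome 17, 43615335 to 43630299), led them, with between 30.6 and 63.5 TPM at 16 dpp, 307 and 285 TPM in mice 1 and 2 at 18 dpp and 105 and 89.9 TPM in mice 4 and 5. Mael and Tdrd7 rose by 1.04 and 0.99. Piwil4, the fetal PIWI protein, and Fkbp6, a cochaperone of the piRNA pathway, fell by 0.49 and 0.38 on the log2 scale, each with overlapping ages. Of 21 pachytene and testis transcription regulators, 14 rose and 3 fell, with a median of 1.10. Rfx2, which drives cilium and spermatid genes, had 66.8, 48.4, 41.9, 35.3 and 59.3 TPM at 16 dpp and 158, 143, 143, 93.8 and 86.2 TPM at 18 dpp. Ovol2, Rfx4 and Tbpl1, the TBP-like factor of spermatids, rose by 2.40, 1.39 and 1.38. The broadly expressed Rfx1, the X-linked Taf7l and Taf4b fell by 0.39, 0.39 and 0.29, the last not called with median-of-ratios factors.

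Among genes that act in the steps of meiosis itself, those of G2/M and the meiotic divisions rose more often than the 20.6% of all genes. The other groups changed little in the median, and the balance of their rises and falls depended on the scaling. Of 33 genes of G2/M and the meiotic divisions, 16 rose and 4 fell, with a median of 0.21, or 21 and 2 with median-of-ratios factors. Beside Ccna1, the risers were led by the kinases Aurkc (1.51, with overlapping ages) and Aurka (1.28) and by Fbxo43, an inhibitor of the anaphase-promoting complex (1.42). Those that fell included Ccna2, the cyclin A of mitotic cells, with 44.0, 47.6, 47.5, 42.3 and 40.8 TPM at 16 dpp and 27.8, 24.9, 27.6, 41.0 and 39.3 TPM at 18 dpp. Mouse 4 at 18 dpp lay within the range of 16 dpp and mouse 5 just below it. Of 15 genes of the synaptonemal complex and meiotic cohesin, 3 rose (Syce1 by 1.06, Sycp2 by 0.61 and Stag3 by 0.50) and 2 fell, Rec8, the meiotic kleisin (-0.42), and Trip13, the ATPase that removes HORMA proteins from axes (-0.30), with a median of 0.16, or 7 and 1 with median-of-ratios factors. Of 27 recombination genes, 5 rose and 5 fell, shares near those of all genes, with a median of 0.04, and with median-of-ratios factors 8 rose and 0 fell. Spo11, which makes the meiotic breaks, had 34.7, 24.7, 23.1, 19.8 and 28 TPM at 16 dpp and 57.5, 52.0, 64.4, 39.4 and 44.1 TPM at 18 dpp, and Psmc3ip, Cntd1 and Mlh3 rose by 0.84, 0.76 and 0.59. Rec114 and Mei1, partners of Spo11 in making breaks, Zcwpw1, a reader of Prdm9 marks, and the X-linked Tex11 fell by between 0.28 and 0.38, in each with overlapping ages. The fifth fall was Brca1, a DNA repair protein, by 0.23. Of 18 genes of the sex body and DNA damage signalling, 3 rose, among them Atr by 0.52 and Mdc1 by 0.51, and 3 fell (the X-linked Scml2 by 0.34, Atm by 0.33 and Brca1, which is in both lists), of which Scml2 alone was called with median-of-ratios factors. Of the histone genes in the table, the variant H2afz rose by 0.29, and the linker histone H1f0 and the variants H2afy2 and H2afv fell by 0.46, 0.42 and 0.36, each with overlapping ages, and the other 6 were not called. Of these falls only that of H1f0 was called with median-of-ratios factors.

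Genes of spermatogonia fell, while those of DNA replication moved in both directions. Of 26 genes of spermatogonia and meiotic entry, 17 fell and 2 rose, with a median of -0.48. Zbtb16, the PLZF factor of undifferentiated spermatogonia, had 15.0, 13.7, 17.7, 14.9 and 12.9 TPM at 16 dpp and 8.30, 8.36, 8.96, 10.0 and 9.53 TPM at 18 dpp, with a log2 difference of -0.65 (SE 0.0986, limma adjusted p = 0.00477). Ret, the receptor of GDNF in stem cells, and the X-linked Sox3 fell by 0.77 and 0.61. The exceptions were Dmrtb1 and Id4, a factor of stem cells. Dmrtb1 had 146, 103, 91.2, 92.0 and 158 TPM at 16 dpp and 579, 574, 524, 231 and 194 TPM at 18 dpp, and 1430 TPM in adult pachytene cells. Id4 rose by 0.41, with overlapping ages. Of 35 DNA replication genes, 12 fell and 8 rose, with a median of -0.20, but 7 fell and 9 rose with median-of-ratios factors. Of the replicative helicase, Mcm4, Mcm2 and Mcm3 fell by 0.44, 0.43 and 0.38, and Tyms, the thymidylate synthase, by 0.67, whereas Chaf1a and Rfc2, a histone chaperone subunit and a clamp loader subunit, rose by 0.90 and 0.55.

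**Figure D3:**
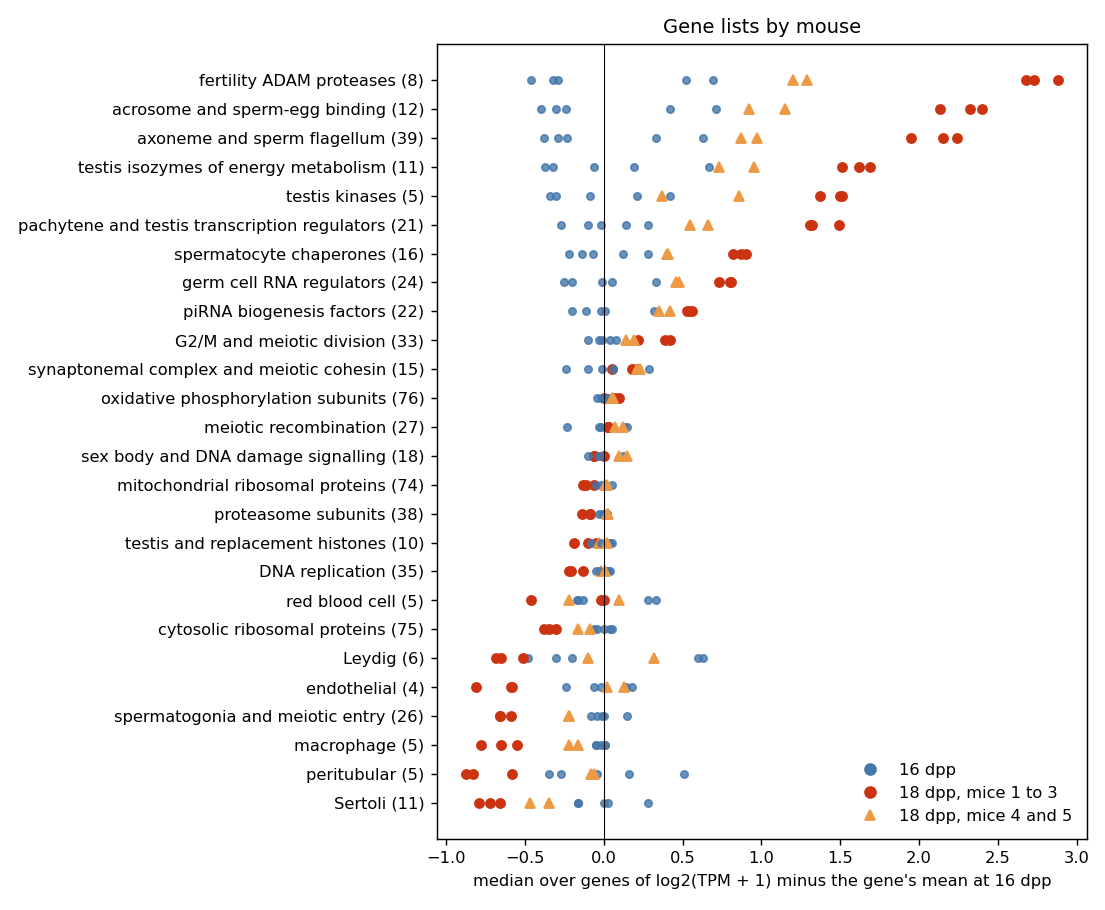
For each gene list (number of measured genes in parentheses), the median over its genes of log2(TPM + 1) in a mouse minus the gene's mean at 16 dpp, with 1 symbol per mouse. Mice 4 and 5 at 18 dpp (triangles) lie between mice 1 to 3 (red circles) and the mice at 16 dpp (blue) in most lists that rose furthest. They also do so in the lists of spermatogonia and Sertoli cells. In the testis kinases mouse 5 at 18 dpp (0.37) lies below mouse 1 at 16 dpp (0.42). In the Leydig, peritubular and endothelial lists the triangles lie within the range of 16 dpp.

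The largest falls among annotated genes were smaller than the rises. Tnfrsf12a, a receptor of the TNF family (chromosome 17, 23675445 to 23677468), had 38.8, 65.7, 94.6, 33.6 and 32.6 TPM at 16 dpp and 16.1, 14.5, 16.5, 17.2 and 28.8 TPM at 18 dpp, with a log2 difference of -1.38 (SE 0.302, limma adjusted p = 0.00675). Shisa8 and Edn1, the endothelin-1 peptide, fell by 1.26 and 1.15. Edn1 had 27.2, 38.3, 45.9, 32.6 and 29.5 TPM at 16 dpp and 13.1, 14.1, 13.2, 12.8 and 22.8 TPM at 18 dpp, and mouse 5 at 18 dpp lay nearest to 16 dpp in both Tnfrsf12a and Edn1. Fthl17d, an X-linked ferritin-like gene, fell by 1.47, but was not called with median-of-ratios factors (limma adjusted p = 0.0563). The other 8 were Slc1a6, Aldh3a1, Gm53, 2900052L18Rik, A630073D07Rik, Tmem37, Hoxb9 and Pdlim4, and the log2 differences of these 8 lay between -1.23 and -1.09. In adult pachytene cells all 12 averaged at most 1.06 TPM. Chosen after their values were seen, the 3 genes that fell by more than 2 on the log2 scale were Trmt112-ps2, Eif4a-ps4 and NONMMUG022517. Trmt112-ps2 and Eif4a-ps4 are processed pseudogenes, whose reads may belong to their parent genes, and each of the 3 was listed at 0 in some mouse and overlapped between the ages.

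Most markers of Sertoli cells and macrophages fell, whereas most markers of the other somatic cells were not called. Of 11 Sertoli cell genes, 10 fell and 0 rose, with a median of -0.59, and their summed level went from between 5560 and 7760 TPM at 16 dpp to between 3660 and 4830 TPM at 18 dpp. Clu, which made up most of that sum, had 3960, 4550, 5540, 4530 and 4030 TPM at 16 dpp and 2620, 2580, 2700, 3250 and 3340 TPM at 18 dpp. Sox9 and Wt1, the transcription factors that define Sertoli cells, each fell by 0.54, and Amh, the anti-Müllerian hormone, by 0.79. The marker Rhox5, an X-linked homeobox gene, was not called (limma adjusted p = 0.314). Of 5 macrophage genes, 4 fell, with sums between 62.6 and 68.3 TPM at 16 dpp and between 38.4 and 59.3 TPM at 18 dpp. Of 4 endothelial genes 1 fell, Cdh5, which was not called with median-of-ratios factors, with summed levels of 51.2 to 66.9 TPM and 31.8 to 65.2 TPM. None of the 6 Leydig, 5 peritubular and 5 red blood cell genes was called in either direction. Their summed levels at 16 and 18 dpp were 217 to 434 and 169 to 472 TPM for Leydig cells, 827 to 1520 and 524 to 1030 TPM for peritubular cells, and 287 to 436 and 250 to 367 TPM for red blood cells. The defining Leydig gene Cyp17a1 differed widely between mice of the same age, with 94.6, 4.10, 3.76, 45.1 and 5.20 TPM at 16 dpp and 21.1, 30.9, 15.8, 107 and 5.19 TPM at 18 dpp. The part of these cells in the falls of other genes was not tested.

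Most cytosolic ribosomal protein genes fell, by small amounts, whereas other genes of protein turnover and energy supply moved in both directions. Of 75 cytosolic ribosomal protein genes, 46 fell and 0 rose, with a median of -0.25, and 31 fell with median-of-ratios factors. The largest falls were in the X-linked Rps4x (-0.67), Rpl39 (-0.61) and Rpl36a (-0.54). Of 74 mitochondrial ribosomal protein genes 16 rose and 10 fell, with a median of -0.07, the rises near the share of all genes and the falls below it. With median-of-ratios factors 20 of them rose and 2 fell. Mrpl39 rose by 0.68 and Mrpl14 fell by 0.56. Of 38 proteasome subunits, 6 rose and 7 fell, or 9 and 3 with median-of-ratios factors. Psma8, the core subunit specific to spermatocytes, lay at 205, 129, 107, 95.8 and 134 TPM at 16 dpp and 226, 244, 235, 197 and 190 TPM at 18 dpp, and its somatic counterpart Psma7 went the other way, from 277, 309, 317, 301 and 269 TPM to 168, 163, 172, 243 and 224 TPM. Of 76 oxidative phosphorylation subunits, 17 rose and 12 fell, with a median of 0.08, or 28 and 7 with median-of-ratios factors. The testis forms Cox8c, Cox7b2 and Cox6b2 rose by 1.32, 1.06 and 0.98, whereas the forms Cox8a and Cox7a1 fell by 0.58 and 0.62.

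The X chromosome stood apart from the autosomes. Of 652 X-linked genes, 319 fell (48.9%) and 12 rose (1.84%), against 27.5% and 22.2% of 14210 autosomal genes. In the calls with median-of-ratios factors 259 X-linked genes fell and 12 rose. In each mouse, the median log2(TPM + 1) of X-linked genes was set against that of autosomal genes. The difference was -0.722, -0.604, -0.539, -0.539 and -0.614 at 16 dpp and -1.19, -1.18, -1.14, -0.788 and -0.744 at 18 dpp. All 5 mice at 18 dpp were lower than all at 16 dpp (exact permutation test, two-sided, p = 0.00794, the smallest that 5 against 5 allows), with means of -1.01 and -0.604 and a difference of -0.405, and mice 4 and 5 were close to mouse 1 at 16 dpp. Of the X-linked genes tested, 14.0% had at least 3 TPM in all 4 adult samples, against 65.3% of the autosomal genes. Among autosomes taken singly, the share of genes that rose lay between 19.0% and 26.9%. Of 20 Y-linked genes, 6 fell and 0 rose, a share of falls near the 27.5% of autosomal genes. With median-of-ratios factors 3 Y-linked genes fell and 1 rose. Whether the Y-linked genes differed from the autosomal genes was not tested.

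The X-linked genes that fell most, beside Fthl17d, were its relative Fthl17c (-0.92), Rtl8c (-0.91), Gpc3, a heparan sulfate proteoglycan (-0.88), and Tceal6 (-0.83). The 5 that rose most started near 0. Spin2d, of the X-linked spindlin family, had 0.27, 0, 0.49, 0 and 0 TPM at 16 dpp and 3.22, 6.43, 1.89, 1.84 and 2.20 TPM at 18 dpp. The related Spin2e had 0, 0, 0, 1.04 and 0 TPM at 16 dpp and 6.17, 1.15, 3.14, 3.73 and 1.71 TPM at 18 dpp. Neither gene had a mouse at 18 dpp within the range of 16 dpp, and mice 4 and 5 lay among the others in Spin2e. The pseudogenes Gm14594 and Gm14625 and the gene Gm10058 also rose, the last with overlapping ages. Reads of such genes may be split with near-identical copies on the X, and Spin2d overlaps Xlr5a on the same strand.

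The 11 X-linked genes of the list with a copy on an autosome were followed as pairs, since such copies are known to be used when the X is silent. The X-linked parent fell in 8 of the 11 pairs and rose in 0, while the autosomal copy rose in 9 of the 10 measured and fell in 0. These counts are to be read against all X-linked genes, of which 48.9% fell and 1.84% rose. Of all autosomal genes, 22.2% rose and 27.5% fell. Pgk2 and Pdha2 are also counted among the isozymes above, and Cstf2t and Rbmxl2 among the RNA regulators. Pgk1, the phosphoglycerate kinase of somatic cells (X chromosome, 106187100 to 106203699), had 90.5, 103, 107, 108 and 101 TPM at 16 dpp and 58.7, 58.6, 65.4, 91.2 and 86.0 TPM at 18 dpp, so that mouse 4 at 18 dpp reached the range of 16 dpp. It fell by 0.52 (SE 0.131, limma adjusted p = 0.0111), as Pgk2 rose by 2.63 (SE 0.508, limma adjusted p = 0.00488). The next largest rises of copies were Cetn1, a centrin, by 1.97 (parent Cetn2, -0.55), and Fam50b by 1.78 (parent Fam50a, -0.45). Fam50b had 43.4, 17.2, 19.7, 20.4 and 39.7 TPM at 16 dpp and 131, 129, 119, 63.7 and 51.8 TPM at 18 dpp. Pdha2, a pyruvate dehydrogenase subunit, rose by 1.06 (parent Pdha1, -0.61), the ribosomal protein copies Rpl10l and Rpl39l by 0.86 and 0.81, and Tktl2 by 0.79. Tktl2 shares its identifier with a piRNA precursor. Utp14b and Cstf2t rose by 0.46 and 0.36, with overlapping ages. Rbmx and Rbmxl2 were both not called, nor were the parents Rpl10 and Tktl1. The copy G6pd2 was listed at 0 in all 10 mice.

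**Figure D4:**
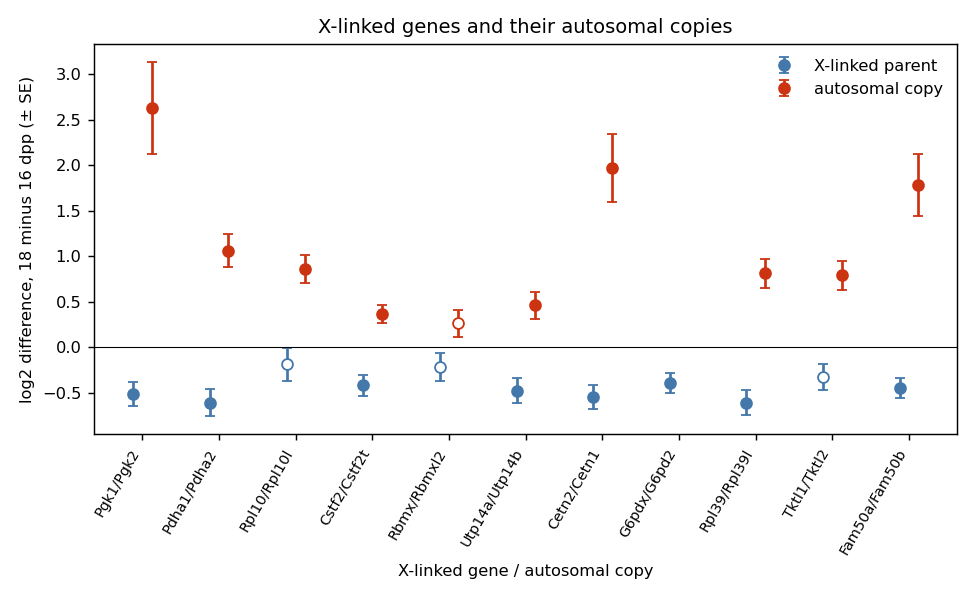
Log2 difference between 18 and 16 dpp (points, with SE as bars, 5 mice per age) for X-linked genes (blue) and their autosomal copies (red), with open symbols where the gene was not called. All blue points lie below 0 and all red points above it.

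Promoter sequences of 7 rising genes are shown beside the words of regulators known from spermatocytes and ciliated cells. The genes were chosen with the words in their promoters known, so that windows with and without such words are both seen. They are the 250 bases before the first start that RefSeq lists on GRCm38.p6, read 5′ to 3′ on the strand of the gene, for Ldhc (chr7:46861013-46861262, plus strand), Piwil1 (chr5:128735996-128736245, plus), Rfx2 (chr17:56831009-56831258, minus), Fam50b (chr13:34734600-34734849, plus), Pgk2 (chr17:40208610-40208859, minus), Prss39 (chr1:34498162-34498411, plus) and Tekt3 (chr11:63061409-63061658, plus). Capitals mark matches, on either strand, to the MYB words CAACTG or CAACGG or TAACTG or TAACGG, to the RFX half-site GTTGCC and to the E-box CACGTG.
Ldhc: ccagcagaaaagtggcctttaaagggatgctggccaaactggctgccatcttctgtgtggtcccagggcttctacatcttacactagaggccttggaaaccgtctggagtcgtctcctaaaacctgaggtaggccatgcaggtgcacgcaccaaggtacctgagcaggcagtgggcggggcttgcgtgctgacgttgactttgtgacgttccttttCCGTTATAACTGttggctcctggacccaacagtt
Piwil1: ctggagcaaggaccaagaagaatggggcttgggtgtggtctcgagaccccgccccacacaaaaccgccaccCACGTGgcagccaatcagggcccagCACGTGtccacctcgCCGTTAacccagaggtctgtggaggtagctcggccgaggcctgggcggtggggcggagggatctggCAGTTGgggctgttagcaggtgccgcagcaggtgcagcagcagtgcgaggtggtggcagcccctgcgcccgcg
Rfx2: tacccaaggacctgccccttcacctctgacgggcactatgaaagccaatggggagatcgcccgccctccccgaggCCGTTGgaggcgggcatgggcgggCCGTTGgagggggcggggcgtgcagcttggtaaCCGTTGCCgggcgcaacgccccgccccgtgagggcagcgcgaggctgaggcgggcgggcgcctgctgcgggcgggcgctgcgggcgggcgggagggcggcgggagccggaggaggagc
Fam50b: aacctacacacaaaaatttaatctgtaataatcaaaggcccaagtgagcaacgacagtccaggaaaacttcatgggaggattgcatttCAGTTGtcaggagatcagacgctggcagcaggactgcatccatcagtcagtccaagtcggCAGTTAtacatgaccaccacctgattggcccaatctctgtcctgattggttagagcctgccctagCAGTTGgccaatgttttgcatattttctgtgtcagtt
Pgk2: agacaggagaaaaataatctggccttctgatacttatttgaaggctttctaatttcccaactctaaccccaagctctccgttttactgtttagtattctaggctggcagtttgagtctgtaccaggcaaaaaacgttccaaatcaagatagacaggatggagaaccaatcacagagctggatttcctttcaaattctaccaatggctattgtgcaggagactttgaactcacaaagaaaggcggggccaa
Prss39: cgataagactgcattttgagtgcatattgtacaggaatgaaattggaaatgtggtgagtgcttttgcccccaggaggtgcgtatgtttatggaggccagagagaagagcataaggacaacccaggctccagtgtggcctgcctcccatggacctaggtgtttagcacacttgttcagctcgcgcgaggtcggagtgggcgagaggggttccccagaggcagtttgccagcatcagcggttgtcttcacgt
Tekt3: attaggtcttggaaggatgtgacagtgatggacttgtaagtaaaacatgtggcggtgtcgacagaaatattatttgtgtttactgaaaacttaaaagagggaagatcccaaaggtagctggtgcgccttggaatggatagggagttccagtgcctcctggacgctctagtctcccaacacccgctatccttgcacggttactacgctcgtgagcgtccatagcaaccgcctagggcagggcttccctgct
The Fam50b window held 3 MYB words, the Ldhc window 2 that touch each other, the Piwil1 window 2 beside 2 E-boxes, and the Rfx2 window 3, the last of which overlaps an RFX half-site, whereas none of these words is in the windows of Pgk2, Prss39 and Tekt3. No MYB word is in those of Ccna1, Ggn, Crisp2, Ybx2 and Hspb9 either, and one was found in 23 of the 69 promoters matched to rising genes of the naming rule (33.3%). Of the 27025 genes with a promoter in the RefSeq table, 23.7% had a MYB word in such a window, 10.5% an RFX half-site, 6.05% an E-box and 1.62% the CRE word TGACGTCA, which is in none of the 7 windows. The table matched 76.1% of the rising Ensembl genes by symbol, too few for a comparison of shares between rising and other genes.

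Non-coding RNA rose in part. Of the 76 piRNA precursors in the table, which are long RNAs cut into piRNAs, 61 rose and 0 fell, with a median log2 difference of 0.91. Of all genes, 20.6% rose and 23.5% fell. The median precursor had 2.06 TPM at 16 dpp and 4.35 TPM at 18 dpp. A low precursor could thus enter the table, which needs 3 TPM in some juvenile mouse, through a mouse at 18 dpp. The values cover the measured precursors only. Together they made up 0.0448%, 0.0296%, 0.0243%, 0.0262% and 0.0341% of all TPM at 16 dpp and 0.0863%, 0.0784%, 0.0766%, 0.0565% and 0.0534% at 18 dpp, without overlap of the ages (exact permutation test, two-sided, p = 0.00794). The largest rises without overlap were pi-17-qC-59, with 5.66, 1.77, 0.49, 2.46 and 4.07 TPM at 16 dpp and 29.1, 18.8, 22.8, 7.68 and 6.26 TPM at 18 dpp, pi-10-qA3-143 (2.17 on the log2 scale) and pi-8-qA2-343 (1.78). Of 269 lincRNA genes of Ensembl, 38.3% rose and 12.3% fell, and of 308 antisense genes 32.5% rose and 5.52% fell. The same limit holds for these and for the NONCODE genes, whose medians at 16 dpp were 2.78, 2.63 and 2.94 TPM. Of the NONCODE genes, 926 rose (17.6%) and 538 fell (10.2%). NONMMUG014657 rose from 8.37, 1.48, 2.36, 4.29 and 8.04 TPM to 66.1, 64.8, 50.1, 12.5 and 13.2 TPM, and NONMMUG001639 and NONMMUG018518 rose by 2.82 and 2.63 on the log2 scale. NONMMUG012649, NONMMUG013236 and NONMMUG010809 fell by 1.98, 1.83 and 1.47. The summed share of NONCODE genes did not differ beyond the spread of the mice, which held 9.70% ± 0.871 of all TPM in the 5 mice at 16 dpp and 9.12% ± 0.670 in the 5 at 18 dpp (± SD, exact permutation test, two-sided, p = 0.286). Without mouse 1 at 16 dpp, the lowest of its age with 8.21%, the difference was -0.948 points (exact permutation test, two-sided, p = 0.0476).

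**Figure D5:**
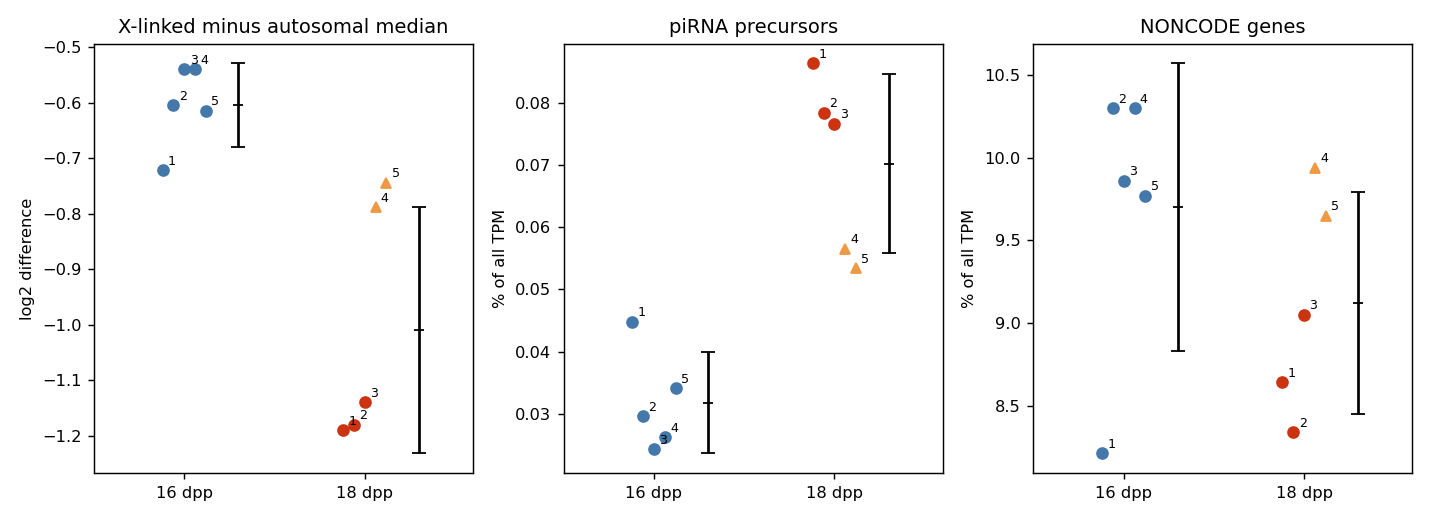
In each mouse (numbered points), the median log2(TPM + 1) of X-linked minus autosomal genes (left), and the percent of all TPM in piRNA precursors (middle) and in NONCODE genes (right), with the mean and SD of each age as bars. The 2 ages do not overlap in the left and middle plots, and mice 4 and 5 at 18 dpp lie nearest to 16 dpp.

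The spread between mice was part of the result. The SD of log2(TPM + 1) over 5 mice was larger at 18 than at 16 dpp in 65.4% of genes, with medians of 0.25 and 0.192, and for the rising genes alone the medians were 0.354 and 0.256. The 4188 rising genes had a median log2 difference from the 5 mice at 16 dpp of 1.08 in mice 1 to 3 at 18 dpp and of 0.48 in mice 4 and 5. For the falling genes the medians were -0.59 and -0.26. To set a mouse against genes chosen without it, genes that changed by at least 1 were called again after leaving that mouse out. In the genes that rose without mouse 4 or mouse 5 of 18 dpp, these mice stood 0.88 and 0.73 above the mean of 16 dpp in the median gene, whereas the remaining mice of 18 dpp stood 1.51 above it in both. Mice 1, 2 and 3 stood 2.04, 1.95 and 1.85 above it in the genes called without them. In mice 4 and 5 of 18 dpp, 96.5% and 94.2% of the genes called without them were above the mean of 16 dpp. Shares of this size were also seen in mice of 16 dpp, so they do not by themselves set the ages apart. For mice 1 to 5 of 16 dpp they were 92.6%, 24.1%, 12.2%, 21.5% and 91.1%. The mice at 16 dpp were also spread, since mice 1 and 5 stood 0.60 and 0.37 above the mean of the other mice of that age and mice 2, 3 and 4 stood -0.21, -0.41 and -0.27 from it.

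The difference between mice 1 to 3 and mice 4 and 5 at 18 dpp is given as a description. An interaction of age with these mouse numbers was fitted, but it divides the mice at 16 dpp by number alone, which marks no set there, and its calls are not used as a result. It served to choose 5 genes, those of smallest p, whose values follow. Rhcg, an ammonium transporter, had 1.93, 2.05, 1.51, 2.21 and 2.63 TPM at 16 dpp and 26.8, 28.1, 25.7, 5.59 and 5.26 TPM at 18 dpp. Mice 4 and 5 at 18 dpp stood above 16 dpp and far below mice 1 to 3. Hk1, a hexokinase with a germ cell form that overlaps the antisense gene Hk1os, had 35.4, 29.4, 28.2, 34.1 and 36.4 TPM at 16 dpp and 96.9, 105, 93.0, 42.0 and 39.9 TPM at 18 dpp, mice 4 and 5 lying close to 16 dpp. 1700001F09Rik was listed at 0 in every mouse at 16 dpp and in mice 4 and 5 at 18 dpp, and had 7.37, 9.09 and 7.07 TPM in mice 1 to 3. Prss39 and Nnt, the mitochondrial transhydrogenase, completed the 5.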

How the data were processed

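Germ cell RNA of 10 mice at 16 and 18 dpp was analysed. The authors sequenced poly-A TruSeq libraries with 100 bp paired-end reads, aligned them with Bowtie 1.0.0 to Ensembl 75, NONCODE v4 and piRNA precursor transcripts of mm10, and estimated TPM with RSEM 1.2.8. The transcript and adult tables were deposited as TPM. The deposited gene table was taken to be TPM in the planned design, but its values were a score, exp(log2(TPM + 1)) - 1, which was converted back, and 20288 of 20368 genes were then within 0.2 TPM of their summed transcripts. TPM keeps no counts, so depth and counting error are unknown. The tables also hold a column of the authors' own substage assignments, which was not used.

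Ages were compared on log2(TPM + 1) with limma 3.58.1 in R 4.3.3, over these 10 mice, with the prior variance trended on mean level and Benjamini-Hochberg adjustment over all 20368 genes. A difference on that scale understates the change of genes of a few TPM. Each mouse was 1 replicate. Single values per mouse were compared by two-sided exact permutation tests (scipy 1.17.1). Genes were placed with GENCODE M21 on GRCm38. The genes named are the 12 largest rises and 12 largest falls of annotated Ensembl genes without overlap of the ages, the 3 largest rises and falls of NONCODE genes and rises of piRNA precursors, the 5 largest X-linked rises and falls, up to 4 called members of each list in each direction, all pairs, the stained proteins, the markers and the 5 genes of smallest interaction p. Members and lists were chosen with earlier results of these data known. Tested on simulated data of this comparison (20368 genes, 200 of them changed), limma recovered 33.5%, 75.0% and 96.5% of genes changed by 0.5, 1 and 2 on the log2 scale, and 5.63%, 9.64% and 9.81% of its calls were unchanged genes. Alternatives covered the pseudocount, filters, scaling, prior variance, ages in the model, a replicate block, the mouse sets and each mouse left out. Python 3.11.15 was used for the rest. The values of 1 called list member are not reported here.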

Additional observations from a re-analysis of the deposited data

Results flagged for a closer look

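Among the 324 sets of 5 mice examined for the named genes, and the values per mouse, single mice stood apart from the other 4 of their age in 17 cases. Chance marks about 1 in 20 sets, so the 17 cases are near the number that chance gives. They are listed as a description only. At 16 dpp mouse 1 was low in the NONCODE share (8.21% of all TPM), in Mcm4 (43.4 TPM), Rbmx (15.3 TPM) and Fam50a (28.9 TPM). It was high in Cstf2t (44.0 TPM), Gm14594 (0.85 TPM) and Gm14625 (0.01 TPM, a value at the floor). At the same age mouse 4 was low in Cox7a1 (66.5 TPM) and high in Rpl10 (119 TPM) and Spin2e (1.04 TPM). At 18 dpp mouse 5 lay nearest to 16 dpp in Tnfrsf12a (28.8 TPM), Edn1 (22.8 TPM) and Piwil4 (3.98 TPM), and mouse 4 in Aurkc (5.63 TPM) and Mrpl14 (36.1 TPM). Mouse 4 was listed at 0 TPM for Fthl17d, and mouse 3 had 0.07 TPM of NONMMUG010809, both on the far side from 16 dpp.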

How the results depend on the processing

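Leaving out a mouse in turn gave 3417 to 4591 rises and 3141 to 5812 falls, and moved the calls of the interaction of age with mouse number, 601 in all mice and not used because the numbers mark no set at 16 dpp, from 0 to 3331 (357 with a pseudocount of 0.1). The planned comparison of mice 4 and 5 of each age gave 0 rises and 0 falls by limma, with 4119 genes at an unadjusted p under 0.05, and mice 4 and 5 of 18 dpp against all 5 mice of 16 dpp, added after the data were seen, 2 rises and 1 fall. With mice 1 to 3 of each age, where 3 against 3 cannot go below an exact p of 0.10, the X-linked difference was -0.548 and the piRNA precursor share differed by 0.0475 points. Over the left-out mice they ranged from -0.471 to -0.36 and from 0.0344 to 0.0426, and the NONCODE share from -0.948 to -0.381. The replicate block gave 3908 rises and 3837 falls. Same-numbered mice are different animals whose deviations correlated at 0.253, -0.087, -0.138, 0.189 and -0.248, and number 1 alone matched its own number best, so the numbers do not pair the mice. Directions of the named genes reversed in 9 of 4366 recomputed values, with mice 4 and 5 of each age in Rec8 (0.02), Tex11 (0.04), Zcwpw1 (0.04) and 1700001F09Rik (0, being listed at 0 in both ages), with mice 1 to 3 of each age in Rbmxl2 (-0.05) and H2afx (-0.09), and against all mice of 16 dpp in H2afx (-0.02, mice 1 to 3 of 18 dpp), Rhox5 (0.18, mice 4 and 5) and 1700001F09Rik (0, mice 4 and 5), and the cause was not tested. Calls were lost in 543 of these values and gained in 12, of which 150 losses came with mice 4 and 5 of each age, where 4 mice remain, and 153 with mice 4 and 5 of 18 dpp against all of 16 dpp. Quantile normalization gave 3895 rises and 5664 falls. TPM limits what can be said of genes of a few TPM, since their reads are unknown.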
